A study of Mus musculus with 12 samples.

Results

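The 10 genes described here encode G protein coupled receptors through which substances that tumors are known to release act on sensory nerve endings: the prostanoid receptors Ptger1, Ptger3, Ptger4 and Ptgir, the bradykinin receptors Bdkrb1 and Bdkrb2, the protease-activated receptors F2r, F2rl1 and F2rl2, and the endothelin A receptor Ednra. They were chosen by symbol and are 10 of the 22609 gene symbols counted in RNA from trigeminal ganglion (TG) neurons that innervate the tongue. All mice were Balb/c athymic nude animals, which lack mature T cells, aged 6 to 8 weeks. MN and FN stand for males and females without a tumor, MT and FT for those with a tongue tumor, and each group has 3 libraries. MT and FT mice carried a tumor of HSC3, an oral squamous carcinoma cell line of human origin, of which 350000 cells had been placed on 1 side of the tongue 15 days before the ganglia were taken. For normal mice the sample labels speak of no cells and the methods of an equal dose of the oral keratinocyte line OKF6-TERT2, so what the tumor groups are compared with was not settled. Neurons were back-filled on day 13 with fluorescent wheat germ agglutinin (WGA), a tracer carried from nerve endings to the cell body, and bright cells were sorted. A library is a pool of 4 ganglia, from 2 mice in MN and FN and, since only ganglia on the tumor side were used, from 4 mice in MT and FT, so every p-value measures the spread between pools.

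Prostaglandins and prostacyclin, made by cyclooxygenases, bind the EP and IP receptors. The IP and EP4 receptors raise cyclic AMP through Gs, EP1 raises calcium, and most EP3 forms couple to Gi. Bradykinin acts on the B2 receptor, which is present in resting nociceptors, and on the B1 receptor, which is typically induced by injury or inflammation. The protease-activated receptors carry their own ligand, which a protease uncovers by cutting the amino terminus: thrombin cuts the receptors of F2r (PAR1) and F2rl2 (PAR3), and trypsin or mast cell tryptase that of F2rl1 (PAR2). Endothelin-1 acts on the receptor of Ednra. In nociceptors some of these pathways, though not all, lower the threshold of channels such as TRPV1, which is why they are studied in cancer pain.

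Libraries held 4592891 to 8922011 reads on genes. In FN replicate 2, FT replicate 2 and FT replicate 3, between 52.6% and 68.4% of all counts were of alignments that were not unique. In the other 9 libraries this share was 43% to 45.5%. It is a share of what HTSeq counted and may differ from the share of reads. Values are therefore also given for those 9 libraries, a set in which FT is FT replicate 1 alone and its spread is taken from the other groups. All 10 sensory neuron markers were detected in every group, with summed levels of 13560 to 21401 CPM, the reads of a gene scaled to the reads on genes in its library. Other cell types were present as well: the summed CPM of 9 macrophage markers lay between 13.3 and 24 in MN, 7.8 and 140 in MT, 102 and 233 in FN, and 87.3 and 240 in FT, with none of the 9 at 0 in any group. In such bulk samples, fewer cells of a type and less RNA per cell cannot be told apart.

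The receptor genes lie partly in clusters, by the GENCODE M1 annotation of the mm9 build to which the reads were aligned. The 3 protease-activated receptor genes fall within 191008 bases of chromosome 13, with F2rl1 at chr13:96281687-96295195 on the minus strand, F2r at chr13:96371759-96388414 on the minus strand, and F2rl2 at chr13:96466808-96472694 on the plus strand. F2rl2 sits inside Iqgap2, a gene of the opposite strand, without sharing an exon base with it. The 2 bradykinin receptor genes fall within 42257 bases of chromosome 12, both on the plus strand, with Bdkrb2 at chr12:106801382-106831281 and Bdkrb1 at chr12:106842301-106843638. The others are apart, with Ptger1 at chr8:86190732-86196652 (plus), Ednra at chr8:80186930-80248363 (minus), Ptger3 at chr3:157229856-157307722 (plus), Ptger4 at chr15:5156661-5194187 (minus) and Ptgir at chr7:17491839-17496254 (plus). The library protocol does not mark strand, so reads from exon bases shared with a gene of the opposite strand cannot be told apart. In this way Ptger4 shares 1015 of its 6648 exon bases with Gm15937 and 82 with Ttc33. Ednra shares 91 of its 5476 with 4933431K23Rik. Whether Ptger1 overlaps another gene is not reported here.

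Promoter sequences are shown for the 3 receptor genes with the highest levels, because they lie next to each other in the order of levels but differ in their content of CG dinucleotides, which are printed in capitals. RefSeq promoter entries, 250 bases before to 50 bases after the start on GRCm38.p6, matched 7 of the 10 genes. F2rl2 is from chr13:95696670-95696969 (plus strand), Ptgir from chr7:16906240-16906539 (plus strand) and F2r from chr13:95618417-95618716 (minus strand), each written 5′ to 3′ along its gene.
F2rl2: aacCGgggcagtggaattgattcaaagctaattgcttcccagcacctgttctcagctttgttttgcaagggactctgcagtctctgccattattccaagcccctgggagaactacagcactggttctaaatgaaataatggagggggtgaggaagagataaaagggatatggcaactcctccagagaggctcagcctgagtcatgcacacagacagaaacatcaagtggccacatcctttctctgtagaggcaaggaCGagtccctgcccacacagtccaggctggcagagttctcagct
Ptgir: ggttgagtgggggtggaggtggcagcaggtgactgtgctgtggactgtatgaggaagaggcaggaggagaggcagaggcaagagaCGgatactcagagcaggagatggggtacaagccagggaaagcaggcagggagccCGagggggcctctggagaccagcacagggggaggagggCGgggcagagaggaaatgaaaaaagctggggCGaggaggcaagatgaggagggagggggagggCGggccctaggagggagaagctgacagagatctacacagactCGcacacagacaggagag
F2r: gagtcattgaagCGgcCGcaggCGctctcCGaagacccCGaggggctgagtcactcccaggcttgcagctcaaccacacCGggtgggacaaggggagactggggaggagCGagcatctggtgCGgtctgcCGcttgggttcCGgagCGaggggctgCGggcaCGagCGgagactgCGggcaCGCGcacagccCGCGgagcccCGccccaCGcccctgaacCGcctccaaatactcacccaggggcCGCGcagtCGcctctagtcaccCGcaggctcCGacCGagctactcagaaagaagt
The F2rl2 promoter holds 2 CG dinucleotides, and 85.9% of the 32851 promoters of this length hold at least as many. The Ptgir promoter holds 6, close to the median of 7 over all promoters, and the F2r promoter holds 28, a number reached by 14.2%. The GC box GGGCGG, searched on both strands and found in 35.7% of all promoters, is present in the windows of F2r, Ptgir, Ptger3 and Ptger4, and these letters are absent from those of F2rl2, Bdkrb2 and Ednra. The 2 protease-activated receptor genes with the most RNA thus have windows with 2 and 28 CG dinucleotides.

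To compare levels between the receptor genes, CPM were divided by exon length to give RPKM. In MN the order of mean RPKM (± SD, n = 3) was F2rl2 at 105 ± 6.92, Ptgir at 47.9 ± 5.21, F2r at 30.4 ± 1.75 and Ptger1 at 11.3 ± 1.7, with no overlap between the ranges of neighbours. PAR3, the prostacyclin receptor, PAR1 and EP1 were thus the receptors with the most RNA per length, and F2rl2 stood above 97.1% of all genes with a length, Ptgir above 93.3%, F2r above 89.8% and Ptger1 above 77.8%. Below them came Bdkrb2 at 4.05 ± 0.308, Ednra at 2.91 ± 0.00577, Ptger3 at 2.7 ± 0.2, Ptger4 at 2.38 ± 0.55 and F2rl1 at 1.4 ± 0.48 RPKM. In this lower part the MN ranges of Ednra and Ptger3 overlapped, as did those of Ptger3 and Ptger4, so the order of these neighbours is not beyond their spread. F2rl1, which encodes PAR2, was in the middle of the list of all genes, above 50% of them. The first 5 places were held by the same genes in the same order in each of the 9 libraries. In FT replicate 2 Ptgir came first, followed by Ptger1 and then F2rl2, and in FN replicate 2 Ptger1 came second and Bdkrb2 ninth. In FT replicate 3 Ptger1 came before F2r, and Bdkrb2 came last, after Bdkrb1.

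**Figure D1:**
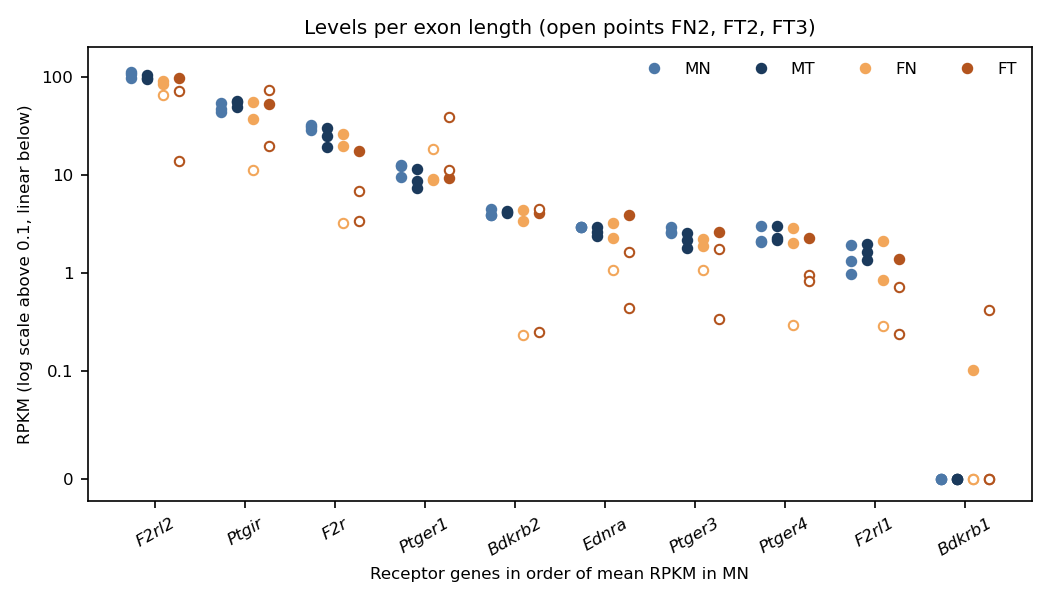
RPKM of each receptor gene (vertical axis, logarithmic above 0.1 and linear below) in each of the 12 libraries, coloured by group, with genes in the order of their mean in MN and FN2, FT2 and FT3 as open points. The 3 MN libraries of F2rl2 lie between 97.2 and 110 RPKM and those of F2rl1 between 0.97 and 1.92, whereas several open points lie far below the filled points of their gene.

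Among the prostanoid receptors, Ptgir, encoding the IP receptor, had 179, 154 and 145 CPM in MN replicates 1 to 3, 182, 186 and 163 CPM in MT, 122, 36.7 and 183 CPM in FN, and 175, 242 and 65 CPM in FT. The male libraries were close to each other, FN replicate 2 and FT replicate 3 were the lowest, FT replicate 2 was the highest, and the ranges of the groups overlapped in all 4 comparisons. In edgeR's quasi-likelihood test across the 13835 genes tested, the log2 fold change of MT versus MN was 0.17 (SE 0.51, adjusted p = 1), and that of FT versus FN was 0.72 (SE 0.52, adjusted p = 0.994). The latter was 0.07 without FT replicate 2, 0.34 without FN replicate 2, 1.11 without FT replicate 3 and 1.18 without FN replicate 3.

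Ptger1, encoding EP1, had 60.3, 46.5 and 61.7 CPM in MN, 36.1, 42.4 and 56.8 CPM in MT, 44, 90.5 and 44.8 CPM in FN, and 45.3, 192 and 55.8 CPM in FT. It was the receptor gene with its highest values in FN replicate 2 and FT replicate 2, and the groups overlapped in each comparison. The difference between FT and MT was 1.42 on the log2 scale (SE 0.59, unadjusted p = 0.0309, adjusted p = 0.372 by edgeR). Without FT replicate 2 this value was 0.2 (adjusted p = 0.822), and in the 9 libraries it was -0.05 (adjusted p = 0.974).

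Ptger3, encoding EP3, had 13.4, 11.7 and 11.9 CPM in MN, 8.18, 11.5 and 9.88 CPM in MT, 8.55, 4.83 and 10.1 CPM in FN, and 11.9, 1.52 and 7.95 CPM in FT. Every MT and every FN library was below the lowest MN library, in MT by a narrow gap, while FT replicate 1 was within the MN range. The log2 fold change was -0.3 in MT versus MN (SE 0.48, adjusted p = 1) and -0.59 in FN versus MN (SE 0.48, adjusted p = 0.812), neither of which passed the edgeR test.

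Ptger4, encoding EP4, had 13.5, 20.1 and 14 CPM in MN, 14.8, 19.7 and 14.2 CPM in MT, 13.5, 1.96 and 19.2 CPM in FN, and 14.8, 6.31 and 5.44 CPM in FT. In the 9 libraries the highest value was 1.49 times the lowest, and each of FN replicate 2, FT replicate 2 and FT replicate 3 was below them all. The log2 fold change was 0.05 in MT versus MN (SE 0.55, adjusted p = 1) and -0.25 in FT versus FN (SE 0.56, adjusted p = 0.994) by edgeR.

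Of the bradykinin receptors, Bdkrb2 had 6.47, 7.4 and 6.54 CPM in MN, 6.79, 7.09 and 7.04 CPM in MT, 5.66, 0.391 and 7.26 CPM in FN, and 6.86, 7.4 and 0.418 CPM in FT. The values of FN replicate 2 and FT replicate 3 rest on 3 reads each, and the other 10 libraries lay between 5.66 and 7.4 CPM. Between MT and MN it differed by 0.05 on the log2 scale, with a 95% interval of -1.64 to 1.75 in the edgeR fit of 12 libraries and of -0.44 to 0.54 when only the male libraries were fitted. Bdkrb1, encoding the B1 receptor, had 0 reads in 10 libraries, where a count of 0 allows up to 0.336 to 0.653 CPM for counting error alone. It had 1 read in FN replicate 3 (0.137 CPM) and 4 reads in FT replicate 3 (0.558 CPM), did not pass the filter on low counts and was not tested. RNA of the inducible receptor was thus at or near the limit of detection with and without a tumor, in a gene that lies next to Bdkrb2.

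Of the protease-activated receptors, F2rl2 was the most even in the 9 libraries, where its highest value was 1.3 times its lowest. It had 276, 269 and 243 CPM in MN, 239, 238 and 259 CPM in MT, 226, 161 and 212 CPM in FN, and 240, 34.6 and 178 CPM in FT. All FN libraries were below all MN libraries, MT overlapped MN, and FT replicate 2 was the lowest library by far. The log2 fold change of FN versus MN was -0.31 (SE 0.44, adjusted p = 0.847) in the 12 libraries and -0.32 (SE 0.1, unadjusted p = 0.00822, adjusted p = 0.17) in the 9, by edgeR. In the fit of 9 libraries the 95% interval ran from -0.53 to -0.1.

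F2r had 106, 101 and 94.3 CPM in MN, 98.2, 82.4 and 62.5 CPM in MT, 65.2, 10.6 and 85.2 CPM in FN, and 56.8, 22.2 and 11 CPM in FT. Every FN library was below every MN library and every FT library below every MT library, and the order of the group means was MN, MT, FN and FT. The log2 fold change was -0.91 in FN versus MN (SE 0.58, adjusted p = 0.81) and -1.34 in FT versus MT (SE 0.59, unadjusted p = 0.0388, adjusted p = 0.397) by edgeR. In the 9 libraries these values were -0.47 (SE 0.19, adjusted p = 0.274) and -0.58 (SE 0.25, adjusted p = 0.584). In FT versus FN the log2 fold change was -0.72 (SE 0.58, adjusted p = 0.994), and leaving out 1 library moved it to between -1.37 without FT replicate 1 and -0.26 without FN replicate 3, with -1.17 without FN replicate 2 and -0.32 without FT replicate 3. Limma-voom gave -1.23 (SE 0.52, unadjusted p = 0.0301, adjusted p = 0.898), where 4.08% of all genes had an unadjusted p under 0.05. The edgeR fit without FN replicate 2 and FT replicate 2 gave -1.1 (SE 0.5, unadjusted p = 0.0483, adjusted p = 0.334). For this fit the share of all genes under 0.05 was not counted, and the 4.08% does not apply to it. Its unadjusted p therefore cannot be read against all genes, and its adjusted p of 0.334 did not pass. PAR1 is also a receptor of endothelial cells, whose 8 markers were all detected in each group, with summed levels of 412 to 960 CPM in MN, 463 to 1126 in MT, 851 to 1272 in FN and 218 to 1115 in FT. The part of these cells in the F2r values was not tested.

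F2rl1 had 2.67, 3.59 and 5.28 CPM in MN, 5.41, 4.45 and 3.7 CPM in MT, 5.78, 0.783 and 2.33 CPM in FN, and 3.84, 0.653 and 1.95 CPM in FT, from 3 to 46 reads a library. It varied most among the 9 libraries, where the highest value was 2.48 times the lowest, and the groups overlapped in each comparison. Its log2 fold change was 0.25 in MT versus MN (SE 0.61, adjusted p = 1) and -0.36 in FT versus FN (SE 0.64, adjusted p = 0.994) by edgeR.

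Ednra had 15.9, 15.9 and 16 CPM in MN, 12.8, 16 and 14.2 CPM in MT, 12.2, 5.87 and 17.7 CPM in FN, and 21.1, 2.4 and 8.92 CPM in FT. The highest and the lowest library were both in FT, and the groups overlapped in each comparison. The log2 fold change was -0.13 in MT versus MN (SE 0.51, adjusted p = 1) and -0.11 in FT versus FN (SE 0.51, adjusted p = 0.994) by edgeR. In the 9 libraries, where FT is 1 library, the latter was 0.51 (SE 0.26, adjusted p = 0.997). Vascular smooth muscle also carries the endothelin A receptor, and all 8 markers of pericytes and smooth muscle were detected in every group, with sums of 102 to 168 CPM in MN, 118 to 249 in MT, 144 to 296 in FN and 117 to 274 in FT. Their part in the Ednra values was not tested.

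**Figure D2:**
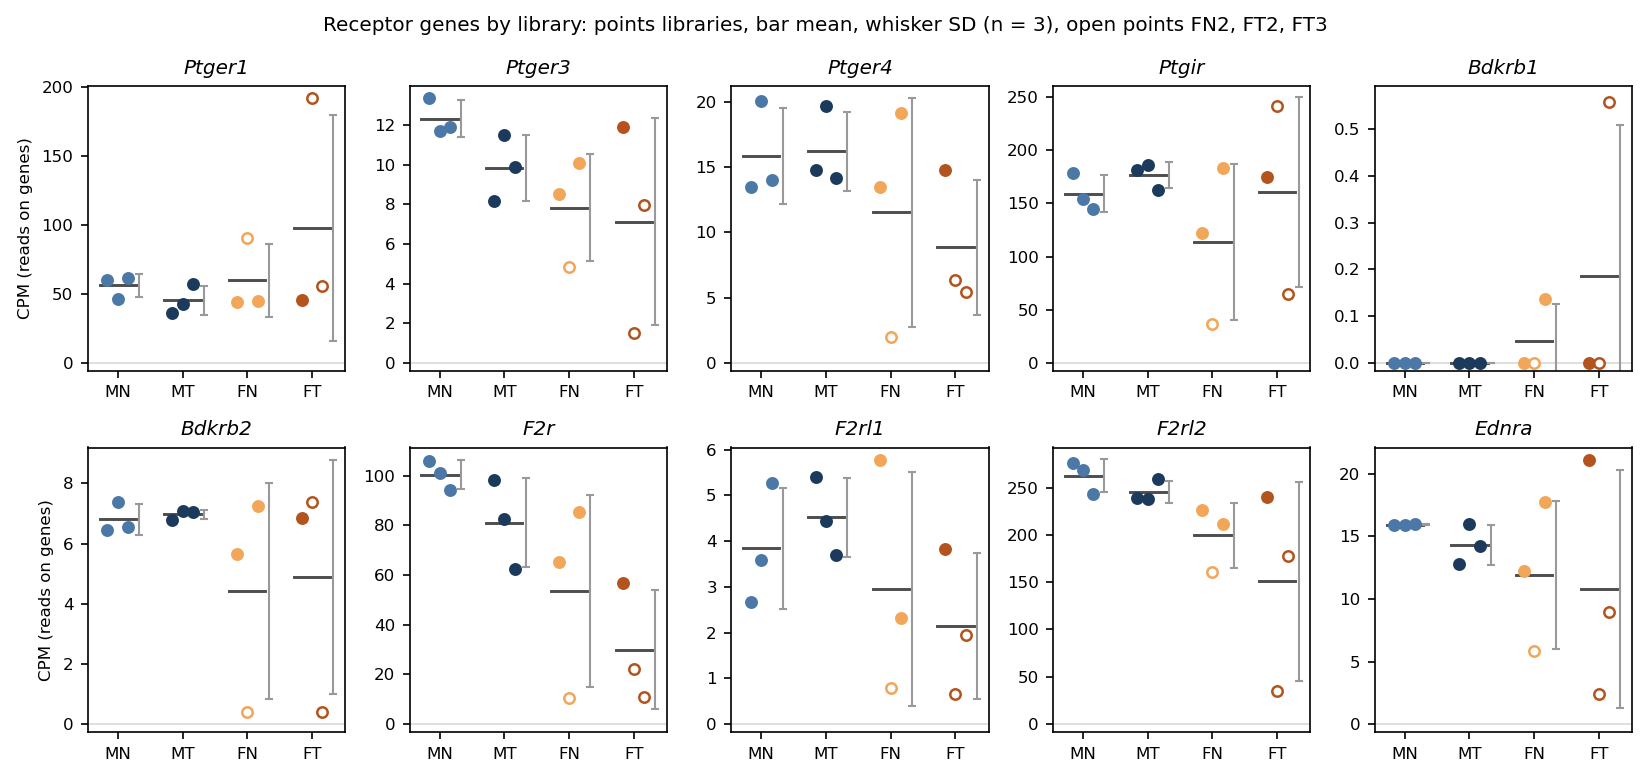
CPM of each of the 10 receptor genes (vertical axes, each with its own scale) in the groups MN, MT, FN and FT, with a point per library, a bar at the mean and a whisker for the SD (n = 3), and FN2, FT2 and FT3 as open points. Male groups are tight in most panels, F2r lies between 94.3 and 106 CPM in MN and between 11 and 56.8 CPM in FT, and Bdkrb1 is at 0 in all but 2 libraries.

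Most of the spread of the receptor genes was carried by 3 libraries. Over the 9 libraries the ratio of the highest to the lowest CPM was between 1.3 and 2.48 for the 9 genes tested, and over all 12 it was between 5.32 and 18.9. Ptger3, Ptger4, F2r, F2rl1, F2rl2 and Ednra were below the range of the 9 libraries in each of FN replicate 2, FT replicate 2 and FT replicate 3. Ptgir and Bdkrb2 were below it in FN replicate 2 and FT replicate 3 only. In FT replicate 2 Ptgir was above the range, at 242 CPM against at most 186 CPM. Bdkrb2 was above it there by less than the rounding of 7.4 CPM. Ptger1 was above the range in FN replicate 2 and FT replicate 2. These 3 libraries thus did not share 1 pattern: F2rl2 was at 161, 34.6 and 178 CPM in them, and Bdkrb2 at 0.391, 7.4 and 0.418 CPM.

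**Figure D3:**
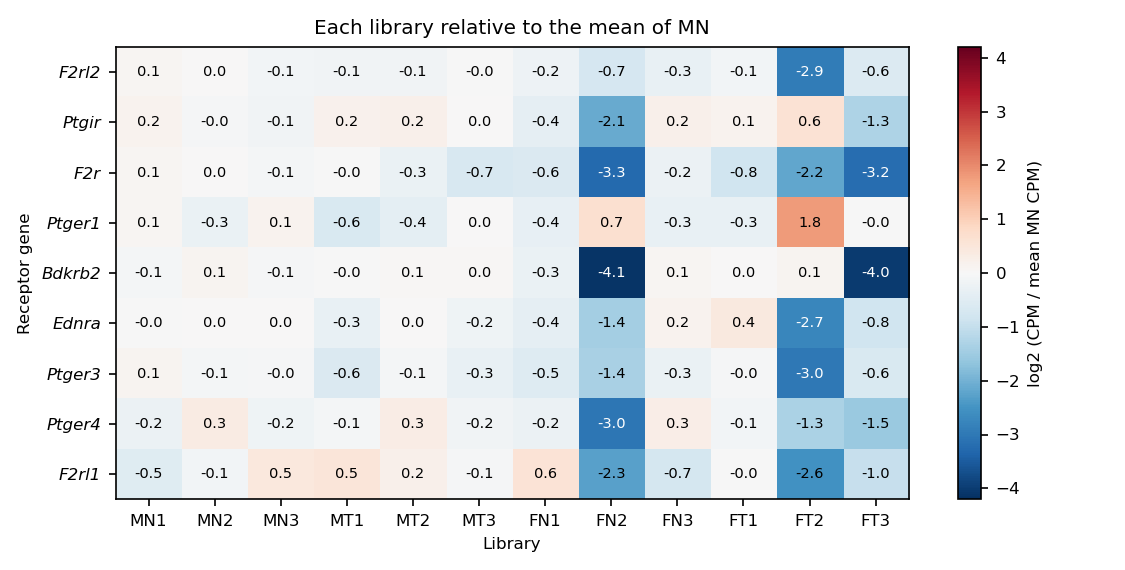
Log2 ratio of the CPM in each library (columns) to the mean CPM of MN, for the 9 receptor genes other than Bdkrb1 (rows), from blue (lower) to red (higher). The pale columns are the 9 libraries, and the dark cells fall in FN2, FT2 and FT3, with Bdkrb2 down in FN2 and FT3 and Ptger1 up in FT2.

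To assess the effect of the tumor in males, MT was compared with MN. None of the 9 receptor genes tested was called at an adjusted p under 0.05 by edgeR, DESeq2 or limma-voom, which called 0%, 0.0145% and 0.34% of all genes. By an unadjusted p under 0.05 edgeR counted 0 of the 9 against 0.426% of all genes. Log2 fold changes ran from -0.3 for Ptger1 to 0.25 for F2rl1 with a median of -0.08, against a median of 0.01 over all genes tested. Only Ptger3 had groups that did not overlap, 1 of 9 genes where 13.1% of all genes did so. The 95% intervals of the 12-library fit reached from -1.64 to 1.75 and none stayed within 1 on the log2 scale. When only the 6 male libraries were fitted, all 9 intervals stayed within 1, between -0.75 and 0.99, so that for these genes a change of the male pools by 2-fold or more lay outside each interval.

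In females, FT was compared with FN. None of the 9 was called by edgeR, DESeq2 or limma-voom, each of which called 0% of all genes, and 0 of 9 had an unadjusted p under 0.05 in edgeR, against 3.82%. Log2 fold changes ran from -0.72 for F2r to 0.84 for Ptger1 (median -0.11, and -0.06 over all genes), with intervals from -1.97 to 2.09. In no receptor gene were the groups apart, which 2.49% of all genes were. Without the 3 libraries, 3 genes were lower and 6 higher where 6 had been lower, and the values lay between -0.4 for F2r and 0.51 for Ednra. Whether the tumor effect differed between females and males was tested as an interaction and gave no call among the 9 in edgeR, DESeq2 or limma-voom, against 0% of all genes in each, with 0 of 9 at an unadjusted p under 0.05 against 1.47%. It ranged from -0.62 for F2rl1 to 1.15 for Ptger1, with intervals from -2.52 to 2.91, and leaving out 1 library in turn turned its sign for each of the 9 genes.

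**Figure D4:**
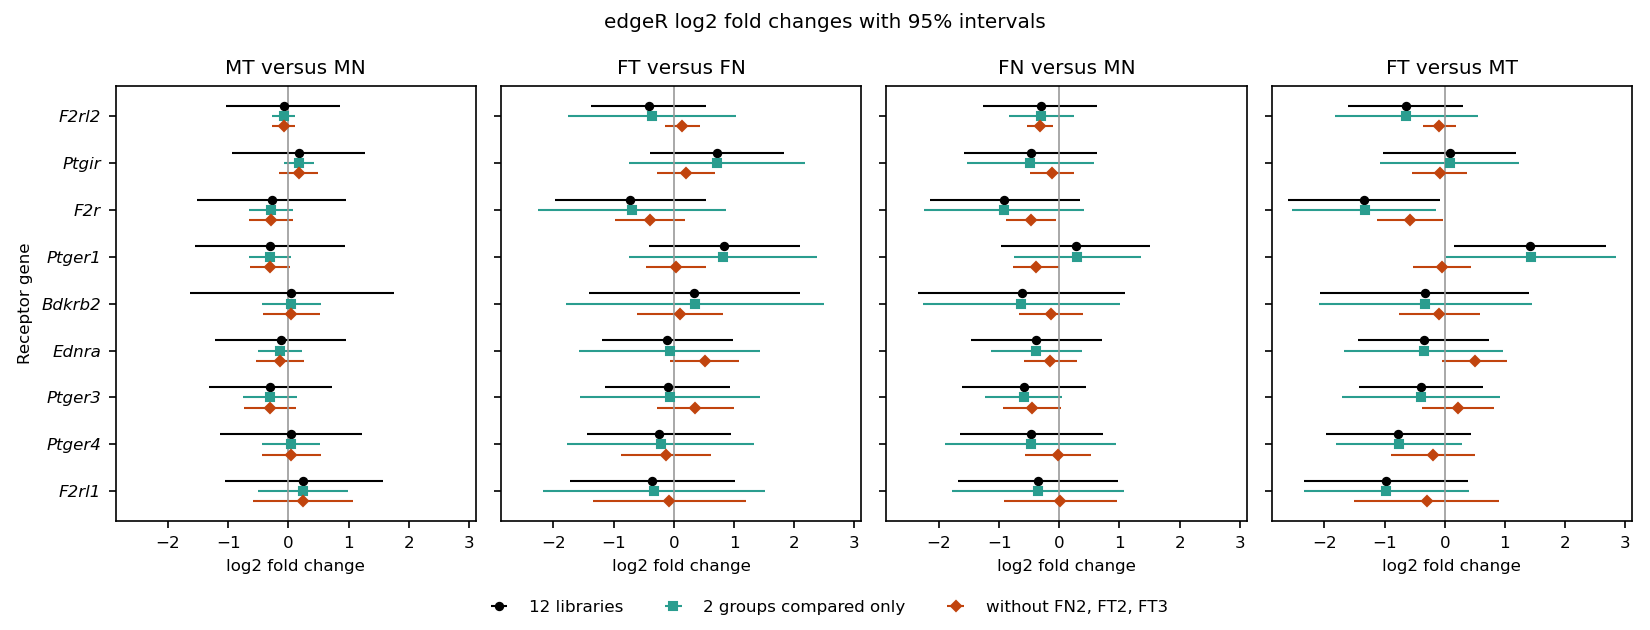
Log2 fold changes of the 9 receptor genes tested (points) with 95% intervals (lines) from edgeR in the 4 comparisons between groups, for the fit of 12 libraries, the fit of only the 2 groups compared and the fit without FN2, FT2 and FT3. Intervals for MT versus MN shrink to between -0.75 and 0.99 in the male libraries alone, and those for FT versus FN stay wide, between -2.25 and 2.5, in the female libraries alone.

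In comparing FN versus MN, none of the 9 was called by edgeR, DESeq2 or limma-voom, which called 0.0434%, 0.188% and 6.1% of all genes. At an unadjusted p under 0.05 edgeR counted 0 of 9, against 5.59%. Of the 9, 8 had a log2 fold change below 0, with a median of -0.47 against 0.07 over all genes, and the lowest was that of F2r. In the 9 libraries, where FN lacks replicate 2, 8 were again below 0 and the median was -0.15. F2r, F2rl2 and Ptger3 were lower in every FN than in every MN library, 3 of 9 genes where 19.8% of all genes had groups that did not overlap. In the 9 libraries the unadjusted p was under 0.05 for F2r, F2rl2 and Ptger1, all lower in FN, and so it was for 15.3% of all genes. The adjusted p was 0.17 to 0.312 for these 3 genes, so none was called there, against 0.44% of all genes. Some marker sums moved with this comparison. Those of nociceptors, endothelial cells, pericytes and smooth muscle, satellite glia, myelinating Schwann cells and neutrophils overlapped between FN and MN. The sensory neuron sum was lower in every FN (16291 to 17096 CPM) than in every MN library (19274 to 20169 CPM). Higher in every FN library were the sums of macrophages, at 102 CPM or more against 24 CPM or less, of 7 fibroblast markers, at 167 to 412 against 82.4 to 143 CPM, and of 4 platelet markers, at 4.79 to 6.54 against 2.64 to 4.6 CPM. None of these markers was at 0 in FN, and Gp9 of the platelet list was at 0 in MN. The part of these cell types in the receptor values was not tested.

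In comparing FT versus MT, again none of the 9 was called by edgeR, DESeq2 or limma-voom, which called 0.0434%, 1.87% and 0.0434% of all genes. F2r (lower in FT) and Ptger1 (higher in FT) had an unadjusted p under 0.05, 2 of 9 against 12% of all genes. Both also met the criteria that the study used for its gene lists, here applied to the edgeR fit: an unadjusted p under 0.05, a change of more than 1.5-fold and, in at least 1 of both groups, more than 5 RPKM on average. In this comparison 8.11% of all genes met them. In MT versus MN, FT versus FN and FN versus MN 0 of the 9 met these criteria, against 0.152%, 2.17% and 3.71% of all genes. In FT versus FN this rests on the fit. F2r had an unadjusted p under 0.05 in limma-voom and in the 10 libraries without FN replicate 2 and FT replicate 2. The adjusted p was 0.898 in limma-voom and 0.334 in edgeR on the 10 libraries, so neither passed. The values are given with F2r, and no share of all genes was counted for the 10 libraries. Of the pair, only F2r had groups that did not overlap, 1 of 9 receptor genes where 17.7% of all genes did so. Some marker sums were apart between FT and MT. These were of 5 neutrophil markers (67.5 to 192 against 5.79 to 30.1 CPM) and 7 fibroblast markers (182 to 343 against 113 to 174 CPM). The sum of 4 platelet markers was also apart (6.86 to 29.4 against 3.95 to 4.4 CPM, with Gp9 at 0 in FT). Sums of sensory neurons, nociceptors, endothelial cells, pericytes and smooth muscle, satellite glia, myelinating Schwann cells and macrophages overlapped. The part of any of these cells in the receptor values was not tested. F2r had the lowest log2 fold change among the 9 receptor genes in both FN versus MN and FT versus MT, and passed the adjusted p in neither. The 2 comparisons come from 1 fit with a shared estimate of the spread, so they are not independent. F2r had 10.6, 22.2 and 11 CPM in FN replicate 2, FT replicate 2 and FT replicate 3. The other female libraries held 56.8 to 85.2 CPM.

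The ligand-forming enzymes, other receptors, G proteins and channels of these pathways were followed through lists of 103 genes, of which 82 were tested. No gene of these lists was called by edgeR in the 12 libraries in any of the 5 comparisons, and in the 9 libraries 1 was, Scn10a in FN versus MN. In limma-voom 1 was called in MT versus MN, the sodium channel gene Scn11a, and 9 in FN versus MN, namely Ptgs1, Edn1, Ctss, Serpine2, Thbd, Ednrb, Itpr3, Scn10a and Scn11a. Scn11a had 137 to 187 CPM in MT and 97.3 to 162 CPM in FN, both below its 211 to 259 CPM in MN. In DESeq2 Ctss was called in FN versus MN and Itpr3 in FT versus MT. At an unadjusted p under 0.05, edgeR counted 1 higher and 0 lower in MT versus MN, 2 and 0 in FT versus FN, 2 and 1 in FN versus MN, 6 and 1 in FT versus MT, and 1 and 0 for the difference between the sexes. As shares of the 82 these are 1.22%, 2.44%, 3.66%, 8.54% and 1.22%, against 0.426%, 3.82%, 5.59%, 12% and 1.47% of all genes. The 9 limma-voom calls among the 82 in FN versus MN stand against 6.1% of all genes, and the 1 in MT versus MN against 0.34%. The DESeq2 calls stand against 0.188% of all genes in FN versus MN and 1.87% in FT versus MT.

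Of 13 genes for prostanoid synthesis and transport, 11 were tested, and the highest levels were those of Ptges3 and Ptges2, which are prostaglandin E synthases, and Ptgds, a prostaglandin D synthase, at means of 72.9, 41.6 and 40.1 CPM over 12 libraries. Of 5 other prostanoid receptors 4 were tested, led by the DP1 receptor Ptgdr at 46.4 CPM and the FP receptor Ptgfr at 15.7 CPM, and Tbxa2r, the thromboxane receptor, was the 1 with an unadjusted p under 0.05, higher in FT than in MT. Of 13 genes that form or break down kinins and endothelins 8 were tested, with Cpe, a carboxypeptidase, at 1161 CPM, Ece1 and Ece2, which process endothelin, at 138 and 85 CPM, and the kininogen gene Kng1 at 0 in every library. Of 18 proteases and inhibitors that act on protease-activated receptors 6 were tested, led by Serpine2, an inhibitor of thrombin, at 92.9 CPM, Thbd (thrombomodulin) at 51.2 CPM and Plat (tissue plasminogen activator) at 41.5 CPM. Tested genes of the latter list included the lysosomal protease gene Ctss, which had 38.6 CPM in MT replicate 3 and 2.52 to 5.14 CPM in the other 5 male libraries, and 12.2 to 53.4 CPM in the female ones. Its log2 fold change in FN versus MN was 2.97 (SE 0.82, unadjusted p = 0.00277, adjusted p = 0.81 by edgeR), and DESeq2 and limma-voom called it there. Ctss is also a macrophage gene, and the macrophage sum was 140 CPM in MT replicate 3, while its part in the Ctss values was not tested.

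Of 2 other thrombin and endothelin receptors, Ednrb, the endothelin B receptor of glia and endothelium, averaged 81.3 CPM and F2rl3, encoding PAR4, 1.76 CPM. Of 9 genes for receptor desensitisation all were tested and none had an unadjusted p under 0.05 in edgeR or a call in DESeq2 or limma-voom, the highest being Rgs4 at 1749 CPM, Arrb1 at 150 CPM and Adrbk1 at 135 CPM. Of 28 genes of G proteins and their effectors 27 were tested, with Gnas (Gs) at 1935, Gnao1 (Go) at 569 and Gnaq (Gq) at 533 CPM. Itpr3, an IP3-gated calcium channel, was called by DESeq2 in FT versus MT, where its log2 fold change in edgeR was 1.17 (SE 0.35, unadjusted p = 0.00524, adjusted p = 0.321). Of 15 channels that some of the receptors are known to sensitise, all were tested. The highest were the sodium channel gene Scn10a at 770, the ATP-gated P2rx3 at 474 and the acid-sensing Accn3 at 315 CPM. Scn10a was lower in every FN than in every MN library, at 236 to 774 against 1017 to 1163 CPM, with a log2 fold change of -0.9 (SE 0.4, unadjusted p = 0.0401, adjusted p = 0.81 by edgeR). In the 9 libraries it was -0.61 (SE 0.1, adjusted p = 0.0242 by edgeR), which passed the test, as it did in limma-voom.

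For the 4 receptor genes with the highest CPM, the genes with the most similar course over the 12 libraries were found by the root mean square difference between log2 CPM profiles, each centred on its own mean, among 13834 other genes. For F2rl2 these were Tdrkh at 0.1, Lrrc28 at 0.14 and Rdh11 at 0.16, where the profile of F2rl2 itself had a root mean square of 0.67. Tdrkh, like F2rl2, had its lowest value in FT replicate 2, at 4.14 CPM against 29.2 to 37.4 CPM in the 9 libraries. For Ptgir they were Stx2 at 0.16 and Ctps and 8430410K20Rik at 0.2 each, for F2r 3110043O21Rik at 0.22, Spock3 at 0.24 and Rps6kc1 at 0.25, and for Ptger1 Rundc3a at 0.17 and Ncor1 at 0.19. Stx2 had 322 CPM in FT replicate 2 and 57.7 CPM in FN replicate 2, on opposite sides of its 195 to 244 CPM in the 9 libraries, as Ptgir did. All 12 points of each profile include the 3 libraries that stand apart, and these set most of its spread.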

How the data were processed

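RNA of 12 pools of WGA-positive TG cells was made into SMART-seq2 libraries and sequenced as single reads of 50 bases. The authors aligned reads to mm9 with TopHat2 and counted them on genes with HTSeq, and the deposited values are whole read counts per gene symbol without normalization. The processing notes also name CASAVA 1.8.2 and SAMtools, and other versions, the annotation and the strand setting are not given in the sources used here.

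Rows that name no gene (76.3% to 88.8% of all counts) were left out. CPM used the reads on genes, and RPKM the exon lengths of GENCODE M1, which matched 95.7% of symbols. Differences came from edgeR 4.0.16 (R 4.3.3), in 1 fit of 4 groups with TMM normalization and filterByExpr at a minimum count of 10 and minimum total of 15, and quasi-likelihood tests received Benjamini-Hochberg adjustment over 13835 genes. The filter kept 9 of the 10 receptor genes. The 5 comparisons were MT versus MN, FT versus FN, FN versus MN, FT versus MT, and the interaction of sex and tumor. The study's methods used DESeq and its criteria on p, fold change and RPKM. Alternatives were DESeq2 1.42.0, limma-voom of limma 3.58.1 with quality weights, DESeq2 size factors (RLE), no filter, a filter of 1 CPM in 3 libraries, the study's criteria, fits of only the 2 groups compared, of 10 libraries (without FN replicate 2 and FT replicate 2) and of 9 (without FT replicate 3 as well), a replicate block, and 12 fits without 1 library each. Code was tested on simulated data. Limits from a count of 0 were set at 3 counts and cover counting error only, because reads carry no molecular identifiers.

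Named genes are the 10 receptor genes, the 3 highest by CPM in each list of pathway genes, any called there, and up to 3 of the most similar genes of the 4 highest receptor genes. Kng1, F2rl3, Tbxa2r, Ctss, Ptgs2, Gnai2, the mast cell protease genes and the genes that overlap Ptger4 and Ednra were named after their values were seen. Some genes are not reported here. The receptor genes and all lists were chosen with earlier results of these data known. Python 3.11.15 with pandas 2.3.3, numpy 2.4.6 and matplotlib 3.10.9 was used for tables and figures.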

Additional observations from a re-analysis of the deposited data

How the results depend on the processing

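No receptor gene passed an adjusted p of 0.05 in any comparison under any of 22 settings of the fit, and the lowest adjusted p was 0.0635, for Ptger1 in FT versus MT without FT replicate 1 (log2 fold change 1.81). The study's criteria gave 2 receptor genes in FT versus MT. Of 936 fold changes of single receptor genes under alternatives, 869 kept their direction and 67 reversed, and the cause was not tested. In FT versus FN, the log2 fold change without FN2 and FT2 was 0.18 for Ptger3, -0.29 for Ptgir, -0.77 for Bdkrb2, 0.02 for F2rl2 and 0.08 for Ednra. Without FN2, FT2 and FT3 it was 0.36 for Ptger3, 0.14 for F2rl2 and 0.51 for Ednra, and limma-voom gave -0.02 for Ptgir and -1.09 for Bdkrb2. In FN versus MN, it was -0.39 for Ptger1 and 0.02 for F2rl1 without the 2 or the 3 libraries, and -0.34 and 0.04 in limma-voom. In FT versus MT, it was 0.03 for Ptger3, -0.58 for Ptgir and 0.07 for Ednra without FN2 and FT2, and -0.05 for Ptger1, 0.22 for Ptger3, -0.08 for Ptgir and 0.5 for Ednra without the 3, and limma-voom gave -0.44 for Ptgir. For the difference between the sexes, it was -0.46 for Ptgir, -0.82 for Bdkrb2 and 0.11 for F2rl2 without FN2 and FT2, 0.22 for F2rl2 without the 3, and -0.25 for Ptgir, -1.16 for Bdkrb2 and -0.01 for Ednra in limma-voom.

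Leaving out each library in turn gave ranges that cross or touch 0. In MT versus MN this was Ptger4 from -0.11 to 0.27. In FT versus FN it was Ptger1 from -0.37 to 1.48, Ptger3 from -0.56 to 0.31, Ptger4 from -0.72 to 0.29, Bdkrb2 from -0.29 to 0.9, F2rl1 from -0.93 to 0.49, F2rl2 from -0.82 to 0.01 and Ednra from -0.89 to 0.31. In FN versus MN it was Ptger1 from -0.37 to 0.5, Ptger4 from -1.01 to 0 and F2rl1 from -1.21 to 0.04. In FT versus MT it was Ptger3 from -0.86 to 0.02, Ptgir from -0.58 to 0.47, Bdkrb2 from -0.96 to 0.23 and Ednra from -1.13 to 0.06. For the difference between the sexes it was Ptger1 from -0.06 to 1.78, Ptger3 from -0.26 to 0.62, Ptger4 from -0.77 to 0.24, Ptgir from -0.1 to 1.01, Bdkrb2 from -0.34 to 0.85, F2r from -1.08 to 0.03, F2rl1 from -1.19 to 0.24, F2rl2 from -0.74 to 0.1 and Ednra from -0.75 to 0.44. F2r in FT versus MT stayed below 0, from -2 without FT replicate 1 to -0.95 without FT replicate 3.

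Deviations from the group means correlated between same-numbered libraries with r from -0.35 to 0.57 (median 0.03) over 18 pairs. Between libraries of different number r ran from -0.65 to 0.61 (median 0) over 36 pairs. These ranges overlap, and they cannot show whether same-numbered libraries were prepared together. A replicate block gave 0 receptor genes called in each of the 5 comparisons, 1.06 for Ptger1 in FT versus MT, and -0.09 for Ednra in the difference between the sexes. With 3 pools a group, the 12-library intervals do not separate changes under 2-fold from none.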

Other observations

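Genes of mast cell proteases, of which tryptase cuts PAR2, were counted in 1 library only, and were singled out after their values were seen. FT replicate 1 had 6.45 CPM of Tpsab1 and 1.92 CPM of Tpsb2, which encode tryptases, and 0.823 CPM of Cma1, which encodes a chymase, and each was at 0 in the other 11 libraries. F2rl1 had 3.84 CPM in FT replicate 1. None of the 3 genes passed the filter on low counts, so no test was made.

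Ptgs2, the inducible cyclooxygenase, also named after its values were seen, had 36.4 CPM in FT replicate 1 and 23 CPM in MT replicate 3, and 0.672 to 14.8 CPM in the other 7 of the 9 libraries. It was at 0 in FN replicate 2 and FT replicate 2 and at 1.25 CPM in FT replicate 3, and in edgeR it had no unadjusted p under 0.05 in any of the 5 comparisons. Gnai2, encoding a Gi subunit to which EP3 couples, was likewise named after its values were seen. It was at 624 CPM in FT replicate 2 and at 434 CPM in FN replicate 2, whereas the remaining 10 libraries held 106 to 188 CPM. Its log2 fold change in FT versus MT was 1.74 (SE 0.66, unadjusted p = 0.0198, adjusted p = 0.351 by edgeR). In that comparison 12% of all genes had an unadjusted p under 0.05.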
